A study of Mus musculus with 2 samples.

Results

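The genes encoding the subunits of the respiratory chain and of the mitochondrial ATP synthase were taken by symbol from the autosomal protein-coding genes of the mouse (symbols that open with Nduf and a subunit letter, Sdha to Sdhd, Uqcr, Cox4 to Cox8, and Atp5). The rule returned 81 of 20780 genes: 35 of complex I, 4 of complex II, 8 of complex III, 17 of complex IV and 17 of complex V. Open chromatin was mapped by ATAC-seq (a transposase inserts adapters where DNA is exposed) in CD8+ OT-I T cells, whose transgenic receptor recognises the OVA257-264 peptide. All cells were wild type and were stimulated with that peptide for 48 h, either with vehicle or with TAMos, CD11b+Ly6G-Ly6C-high cells purified from the spleens of mice bearing LLC tumours. About 50000 T cells were then sorted from each culture. Each culture gave 1 library, so no difference below has a replicate check and no p-value is given. The intervals given cover counting error only.

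Complex I (NADH dehydrogenase), complex III (cytochrome bc1) and complex IV (cytochrome c oxidase) pass electrons to oxygen and pump protons across the inner mitochondrial membrane, complex II (succinate dehydrogenase) feeds electrons in from the citric acid cycle, and complex V (ATP synthase) uses the proton gradient to make ATP. Nuclear respiratory factor NRF1, the ETS-family factor GABP and YY1 are known to bind many promoters of these nuclear genes. T cells enlarge their mitochondrial mass after activation, and several complex IV subunits also exist as isoforms that are best known from heart, skeletal muscle, lung or testis.

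The promoter sequences of 7 genes are shown because they cover the range of promoter types and of accessibility among the subunit genes. They run from 250 bases before to 50 bases after the start of the gene, in the direction of transcription, and come from RefSeq on GRCm38.p6. Capitals mark matches on either strand to one of 7 motifs: GCGCA followed by any base and GCGC (NRF1), CCGGAAG (ETS), AAGATGG (YY1), CCAAT (the CCAAT box), GGGCGG (SP), TGACGTCA (CRE) and AAGGTCA (the ERR element). Atp5k (subunit e of ATP synthase, chr5:108434350-108434649, minus strand) held NRF1, ETS and ERR matches. Atp5j (coupling factor 6, chr16:84834927-84835226, minus strand) held YY1 and ETS matches and had the highest promoter coverage of all subunit genes. Sdhb (the iron-sulfur subunit of complex II, chr4:140961021-140961320, plus strand) held ETS, CCAAT and SP matches, and Uqcrfs1 (the Rieske iron-sulfur protein of complex III, chr13:30545267-30545566, minus strand) a CRE match. Cox8a (chr19:7217567-7217866, minus strand) and Cox8b (chr7:140900397-140900696, minus strand) encode the broadly expressed and the muscle isoform of the same complex IV subunit, and the first was open in both libraries while the second had no interval in either. Ndufb10 (an accessory subunit of the membrane arm of complex I, chr17:24724374-24724673, minus strand) had the lowest ratio of promoter coverage. It held none of the 7 motifs, and neither did Cox8b, nor Ndufa4 (log2 ratio -0.28) and Ndufb5 (log2 ratio 0.18), which are not shown.
Atp5k: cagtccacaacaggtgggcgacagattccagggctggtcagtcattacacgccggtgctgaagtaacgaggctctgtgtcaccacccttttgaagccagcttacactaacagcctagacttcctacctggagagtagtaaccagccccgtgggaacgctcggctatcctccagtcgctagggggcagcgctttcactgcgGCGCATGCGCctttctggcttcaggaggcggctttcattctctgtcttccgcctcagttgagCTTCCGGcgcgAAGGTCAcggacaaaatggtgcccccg
Atp5j: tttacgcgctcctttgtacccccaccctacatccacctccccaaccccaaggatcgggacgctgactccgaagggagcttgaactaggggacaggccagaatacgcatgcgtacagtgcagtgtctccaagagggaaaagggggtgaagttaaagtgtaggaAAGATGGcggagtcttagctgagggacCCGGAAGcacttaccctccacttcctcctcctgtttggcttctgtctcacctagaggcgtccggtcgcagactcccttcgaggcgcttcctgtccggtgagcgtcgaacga
Sdhb: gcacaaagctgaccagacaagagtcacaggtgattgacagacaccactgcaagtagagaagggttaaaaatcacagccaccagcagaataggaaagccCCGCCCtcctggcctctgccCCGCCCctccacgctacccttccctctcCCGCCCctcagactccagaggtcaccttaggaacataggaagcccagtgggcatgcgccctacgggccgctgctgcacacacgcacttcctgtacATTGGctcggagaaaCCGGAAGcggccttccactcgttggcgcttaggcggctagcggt
Uqcrfs1: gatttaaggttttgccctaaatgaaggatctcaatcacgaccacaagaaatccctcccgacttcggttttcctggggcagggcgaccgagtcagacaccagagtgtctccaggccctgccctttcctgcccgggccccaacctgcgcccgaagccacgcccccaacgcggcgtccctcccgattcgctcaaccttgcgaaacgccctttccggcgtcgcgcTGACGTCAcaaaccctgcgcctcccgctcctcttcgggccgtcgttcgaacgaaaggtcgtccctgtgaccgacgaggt
Cox8a: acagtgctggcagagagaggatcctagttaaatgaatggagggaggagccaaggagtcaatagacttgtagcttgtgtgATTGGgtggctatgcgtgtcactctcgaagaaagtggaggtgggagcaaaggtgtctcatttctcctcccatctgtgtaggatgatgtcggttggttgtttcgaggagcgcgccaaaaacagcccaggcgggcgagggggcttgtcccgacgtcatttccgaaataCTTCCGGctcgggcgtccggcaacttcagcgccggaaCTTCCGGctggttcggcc
Cox8b: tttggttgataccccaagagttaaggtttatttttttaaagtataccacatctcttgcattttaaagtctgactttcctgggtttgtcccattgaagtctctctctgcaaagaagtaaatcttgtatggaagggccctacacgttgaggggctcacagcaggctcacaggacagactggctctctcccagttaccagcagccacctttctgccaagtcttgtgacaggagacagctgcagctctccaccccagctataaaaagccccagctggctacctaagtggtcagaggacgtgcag
Ndufb10: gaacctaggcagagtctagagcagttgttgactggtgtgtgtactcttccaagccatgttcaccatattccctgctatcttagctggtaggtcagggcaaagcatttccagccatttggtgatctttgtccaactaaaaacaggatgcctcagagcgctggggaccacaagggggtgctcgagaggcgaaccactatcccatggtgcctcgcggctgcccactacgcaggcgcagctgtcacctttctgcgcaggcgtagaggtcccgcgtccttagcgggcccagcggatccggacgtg

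An open interval within 1 kb of a start site was found for 77 subunit genes in the vehicle library and for 76 in the TAMo library. Of the 81 genes, 76 had one in both libraries, or 93.8%, against 65.3% of all autosomal protein-coding genes. No gene had one in the TAMo library alone (3.4% of all genes), and 1 gene had one in the vehicle library alone (0.866% of all genes). This gene was Ndufa4l2, a paralog of Ndufa4 known as a hypoxia-induced gene, whose interval (chr10:127513884-127514065) had its summit at -994 bp from the start site, at the edge of the window, with 127 reads. With a window of 2.5 kb this gene had an interval in both libraries, through shared regions of which the nearest, at -1283 bp, had 233 and 226 reads, and no subunit gene was open in 1 library only. In neither library was one found for 4 genes, or 4.94%, against 30.5% of all genes, and all of them encode tissue-restricted isoforms of complex IV: Cox6a2 and Cox8b, known from heart and skeletal muscle, and Cox7b2 and Cox8c, known from testis. Every gene of complexes II, III and V was open at its promoter in both libraries.

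The subunit promoters held 118 intervals in the vehicle library, of which 5, or 4.24%, overlapped no TAMo interval, beside 5.9% of all promoter intervals. They held 125 intervals in the TAMo library, of which 13, or 10.4%, overlapped no vehicle interval, beside 15.7% of all promoter intervals. The TAMo-only ones were covered by 19 reads (near Cox4i2) to 170 reads (near Uqcrh), and the vehicle-only ones by 43 reads (near Cox6c) to 158 reads (near Ndufb7).

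The number of reads over each summit was recovered from the deposited fold and −log10 p of the peak caller, and is called coverage here. The most frequent background coverage was 4.71 reads for vehicle and 5.80 for TAMo, a ratio of 1.23, and coverage was divided by this background before the libraries were compared. For each gene the ratio is the log2 of TAMo over vehicle at the strongest summit of its promoter window, with a 95% exact binomial interval in parentheses. It could be formed for 72 genes, those whose strongest summits lay in overlapping intervals. In the 4 others that were open in both libraries, Uqcrh, Cox6b2, Atp5d and Atp5l, the strongest summits lay in different intervals.

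Subunit promoters had nearly the same coverage in both libraries. The median ratio was -0.00 (quartiles -0.08 and 0.12), against 0.03 (quartiles -0.13 and 0.22) over all 12914 promoters with a ratio. None of the 72 genes was 1.5-fold higher in the TAMo library, beside 8.83% of all promoters, and none was 1.5-fold lower, beside 3.26%. A difference of less than 1.2-fold in either direction was found in 66 of the 72, or 91.7%, and in 65.6% of all promoters. Since strong promoters have smaller counting errors, the same was read among promoters with 300 reads or more in both libraries: 93.8% of 65 subunit genes and 80.4% of 8470 genes lay within 1.2-fold, and the calls over all such genes came to 1.02% higher and 1.29% lower. The ratios ran from -0.56 to 0.58, and the highest lay just under the 1.5-fold mark of 0.585. When ratios were centred on all regions shared by the libraries, which lowered each by 0.28, the median of the subunit genes was -0.28 and 2 genes, Ndufb10 and Cox4i2, passed the 1.5-fold mark downwards, beside 10.4% of all promoters, and none upwards, beside 4.86%. The sign of a small ratio therefore depends on the scaling, and the position of a gene relative to all promoters does not.

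**Figure D1:**
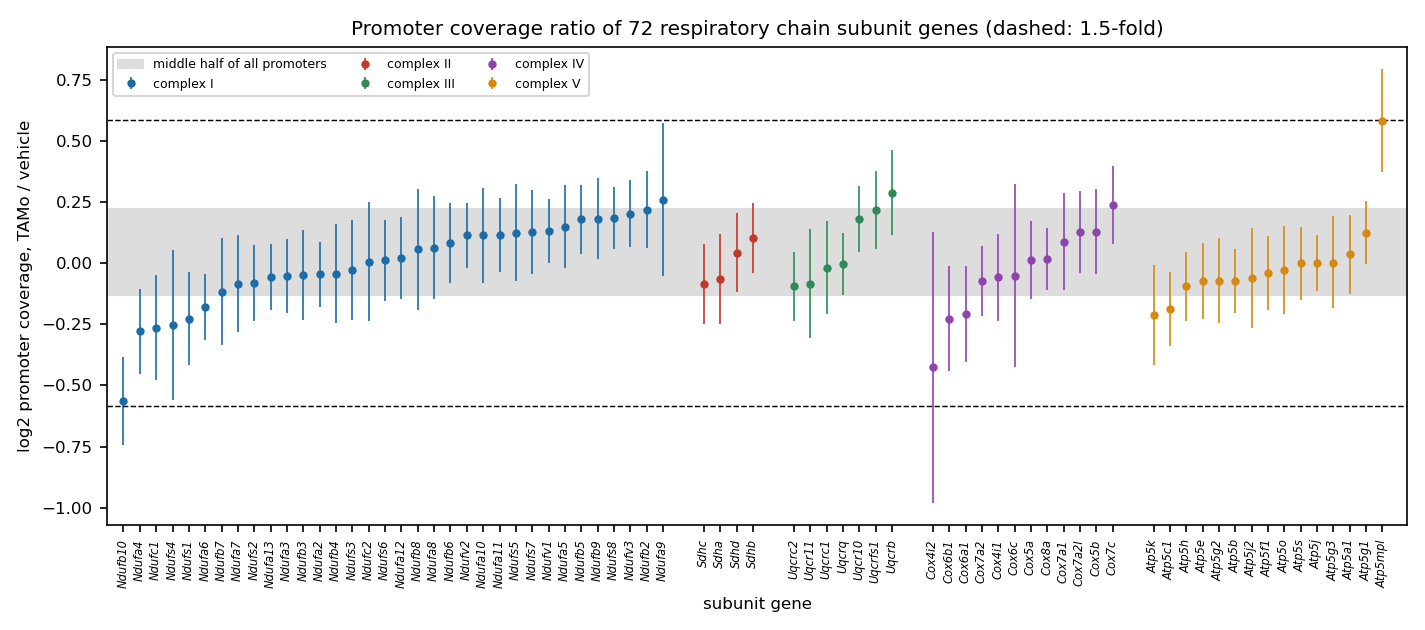
Log2 ratio of promoter coverage, TAMo over vehicle, for the 72 subunit genes with a ratio, ordered within each complex. Points are single values from 1 library per group, bars are 95% exact binomial intervals, the grey band spans the quartiles of all promoters (-0.13 to 0.22), and dashed lines mark 1.5-fold; no point lies outside them.

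Complex I holds the most genes, and its 34 ratios had a median of 0.02. The catalytic core showed little difference. Ndufv1, the flavin subunit that binds NADH, had 849 reads in the vehicle library and 1145 in the TAMo library, a ratio of 0.13 (0.00 to 0.26). Ndufs1, the largest iron-sulfur subunit, had 442 and 465 reads, a ratio of -0.23 (-0.42 to -0.04). Its window also holds the start site of Eef1b2, only 3 bp away, so the coverage belongs to both genes. Ndufb10 had 561 reads in the vehicle library and 467 in the TAMo library, a ratio of -0.56 (-0.75 to -0.39). It was the lowest of all the subunit genes, while remaining under 1.5-fold. Ndufa4, which its symbol places in complex I although the protein is also described as part of cytochrome c oxidase, had 541 and 549 reads, a ratio of -0.28 (-0.45 to -0.11). At the other end, Ndufb2, an accessory membrane subunit, had 566 and 810 reads, a ratio of 0.22 (0.06 to 0.37). Ndufa9, an accessory subunit of the joint between the arms of the complex, had weak promoter coverage of 146 and 215 reads, and its ratio of 0.26 (-0.05 to 0.57) had the wider interval that goes with it.

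The 4 genes of complex II had ratios from -0.09 to 0.10. Sdha, the flavoprotein that oxidises succinate, had 448 reads in the vehicle library and 527 in the TAMo library, a ratio of -0.07 (-0.25 to 0.12). Sdhb had 721 and 953 reads, a ratio of 0.10 (-0.04 to 0.24). In the sequence of Sdhb above, the strongest summits fell on base 272 in the vehicle library and base 263 in the TAMo library, the latter on the last base of the ETS match. The membrane anchors Sdhc (570 and 661 reads, ratio -0.09) and Sdhd (568 and 720 reads, ratio 0.04) lay between them or close by, and all 4 intervals included 0.

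Complex III had a median ratio of -0.00 over 7 genes. The core proteins Uqcrc1 and Uqcrc2 had 414 and 767 reads in the vehicle library and 503 and 884 in the TAMo library, with ratios of -0.02 (-0.21 to 0.17) and -0.10 (-0.24 to 0.05). Uqcr11, a small accessory subunit, had 315 and 366 reads, a ratio of -0.08 (-0.31 to 0.14). Higher values were seen for Uqcrb, the ubiquinone-binding protein, with 461 and 693 reads, a ratio of 0.29 (0.12 to 0.46). Uqcrfs1 had 553 and 792 reads, a ratio of 0.22 (0.06 to 0.38). Uqcrh, the hinge protein, had its strongest vehicle summit at the start site and its strongest TAMo summit in an exon of the adjoining Lrrc41. Summit by summit, it had 695 and 729 reads close to its start site, a ratio of -0.23 (-0.38 to -0.08), and 642 and 781 reads at -351 bp, a ratio of -0.02 (-0.17 to 0.14).

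Complex IV had a median ratio of -0.02 over 12 genes. Isoforms with no promoter interval were found for subunits 6a, 7b and 8. Cox4i1, the broadly expressed isoform of subunit 4, had 481 reads in the vehicle library and 569 in the TAMo library, a ratio of -0.06 (-0.24 to 0.12). Cox4i2, the isoform known from lung and from hypoxia, had 60 and 55 reads, the lowest coverage of any subunit gene in both libraries, and a ratio of -0.43 (-0.98 to 0.13) whose interval included 0. Cox6a1 and Cox6b1, the broadly expressed isoforms of subunits 6a and 6b, had 414 and 351 vehicle reads and 441 and 369 TAMo reads, with ratios of -0.21 (-0.41 to -0.01) and -0.23 (-0.44 to -0.01). Cox6a2, the muscle isoform of subunit 6a, had no promoter interval, while Cox6b2, the testis isoform of subunit 6b, had promoter intervals in both libraries. Cox8a had 901 and 1122 reads, a ratio of 0.02 (-0.11 to 0.14), while Cox8b and Cox8c had none.

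The subunit 7a family was open throughout. Cox7a2, its broadly expressed isoform, had 738 and 864 reads, a ratio of -0.07 (-0.22 to 0.07). Cox7a1, best known from heart and skeletal muscle, had 374 and 489 reads, a ratio of 0.09 (-0.11 to 0.28), so that it was open at a level near that of Cox6b1. Cox7a2l, a factor of supercomplex assembly, had 515 and 692 reads, a ratio of 0.13 (-0.04 to 0.29), but these strongest summits lay 281 bp apart. At matched summits there were 515 and 600 reads by the start site, a ratio of -0.08 (-0.25 to 0.09), and 480 and 692 reads at -293 bp, a ratio of 0.23 (0.06 to 0.40). Among single-gene subunits, Cox5a had 582 and 723 reads (ratio 0.01), Cox5b 483 and 650 reads (ratio 0.13) and Cox7c 536 and 778 reads (ratio 0.24, interval 0.08 to 0.40).

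**Figure D2:**
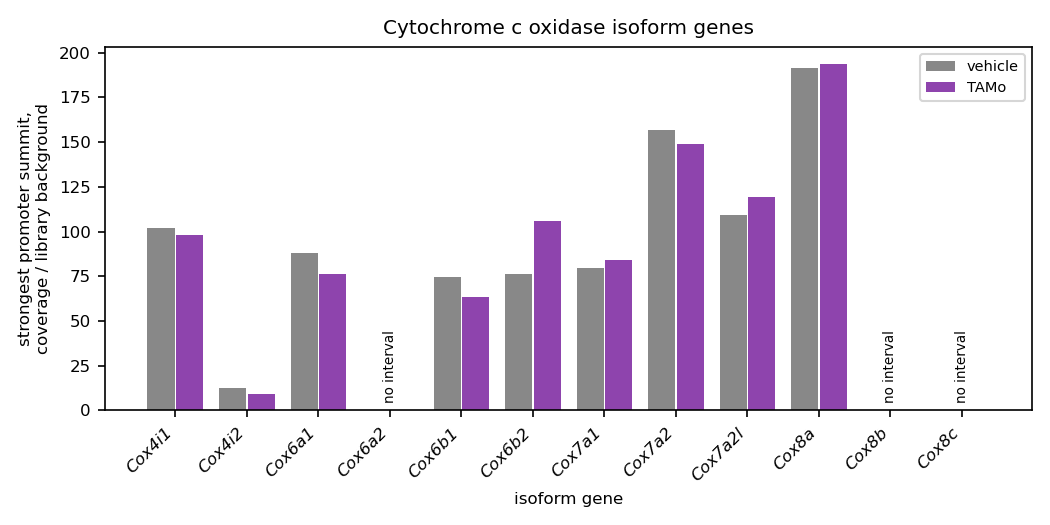
Coverage of the strongest promoter summit divided by the library background, for isoform genes of cytochrome c oxidase in the vehicle library (grey) and the TAMo library (purple), 1 library each. Bars of both libraries are close for most isoforms, Cox4i2 is low in both, and Cox6a2, Cox8b and Cox8c have no interval; the 2 bars of Cox6b2, and those of Cox7a2l, are from different sites.

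Cox6b2, the testis isoform of subunit 6b, had the highest ratios of matched summits among the isoform genes. Its start site had 358 reads in the vehicle library and 534 in the TAMo library, a ratio of 0.28 (0.08 to 0.47). In an intron of the gene, 694 bp downstream of the start site (chr7, summit at 4752278), there were 66 reads in the vehicle library and 614 in the TAMo library, a ratio of 2.92 (2.55 to 3.31). A second intronic summit, 340 bp downstream, had 171 and 610 reads, a ratio of 1.53 (1.29 to 1.79). Thus both intronic sites stood well below the start site in the vehicle library and above it in the TAMo library. The strongest TAMo summit of the gene was therefore the intronic one, and this is why the gene had no promoter ratio.

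Complex V had a median ratio of -0.04 over 15 genes, and 14 of these lay within 1.2-fold. Atp5b, the catalytic beta subunit, had 899 reads in the vehicle library and 1053 in the TAMo library, a ratio of -0.07 (-0.20 to 0.06). Atp5a1, the alpha subunit, had 566 and 715 reads, a ratio of 0.04 (-0.12 to 0.20). Atp5c1, the gamma subunit of the central stalk, had 686 and 741 reads, a ratio of -0.19 (-0.34 to -0.04). Of the membrane part, Atp5g1, which encodes the subunit of the c ring, had 854 and 1146 reads, a ratio of 0.12 (-0.01 to 0.25), and Atp5k had 383 and 407 reads, a ratio of -0.21 (-0.42 to -0.01). Atp5mpl, a small proteolipid associated with the synthase, had 288 and 531 reads, a ratio of 0.58 (0.37 to 0.79). It was the highest of all 72 genes and the only one of complex V outside 1.2-fold. Atp5j had 1112 and 1369 reads, a ratio of -0.00 (-0.12 to 0.12), and its window holds the start site of Gabpa, the DNA-binding subunit of GABP, 379 bp away.

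The interval of single genes was also read against the median of all promoters. It lay wholly above that median in 9 subunit genes, beside 22.7% of all promoters, and wholly below it in another 9, beside 21.2%. The 9 above were Atp5mpl, Uqcrb, Cox7c, Uqcrfs1, Ndufb2, Ndufv3, Ndufs8, Ndufb5 and Uqcr10, with ratios from 0.18 to 0.58. The 9 below were Ndufb10, Ndufa4, Ndufc1, Cox6b1, Ndufs1, Cox6a1, Atp5k, Atp5c1 and Ndufa6, with ratios from -0.56 to -0.18. Both sets hold genes of complexes I, IV and V, and 9 of 72 in each direction was a smaller share than that of all promoters.

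The position of the strongest summit was also alike in both libraries for most subunit genes. The strongest summit lay within 100 bp of a start site in 61 of 77 subunit genes in the vehicle library (79.2%, against 59.0% of all genes) and in 58 of 76 in the TAMo library (76.3%, against 55.4%). Between libraries it moved by at most 20 bp in 68 of the 72 genes with a ratio (94.4%, against 78.5% of all genes with a ratio), with a median shift of 6 bp. In the 4 genes open in both libraries but without a ratio, the strongest summits lay 337 bp (Uqcrh) to 839 bp (Cox6b2) apart. In 25 of the 81 genes, or 30.9%, another protein-coding gene starts in the same window, compared with 12.5% of all genes, and several of these neighbours are themselves mitochondrial. Ndufs6, an accessory subunit of complex I, starts 29 bp from Mrpl36, a mitochondrial ribosomal protein gene, and Ndufb5 starts 76 bp from Mrpl47. Sdhd starts 98 bp from Timm8b, a mitochondrial import chaperone gene.

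Each promoter window can hold several summits, so summits of the libraries within 50 bp of each other were paired, a comparison chosen after the data had been seen. In 76 subunit genes there were 224 pairs, of which 10 were 1.5-fold higher in the TAMo library (4.46%, beside 10.6% of all promoter pairs) and 4 were 1.5-fold lower (1.79%, beside 4.44%). Of the 10 higher sites, 7 lay in introns of the subunit gene, downstream of the start site. Besides those of Cox6b2, they included a site 336 bp into Ndufa4, with 119 reads in the vehicle library and 334 in the TAMo library, a ratio of 1.19 (0.88 to 1.5). Cox7a2l had a pair of such sites, with 62 and 144 reads at 462 bp and 101 and 218 reads at 255 bp, ratios of 0.92 and 0.81. Of the 4 lower pairs, 3 were in the promoter windows of complex I genes. In Ndufb10 they were intronic, 313 and 234 reads at 491 bp (ratio -0.72) and 206 and 164 reads at 313 bp (ratio -0.63), so that its start site and both intronic summits pointed the same way. The other complex I pair was in the window of Ndufs3, in an intron of Kbtbd4, with 113 and 82 reads (ratio -0.76), and the last was at -241 bp from the start of Atp5l, with 209 and 163 reads (ratio -0.66). The site in Ndufs3 and that in Atp5l were named after their values were seen.

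**Figure D3:**
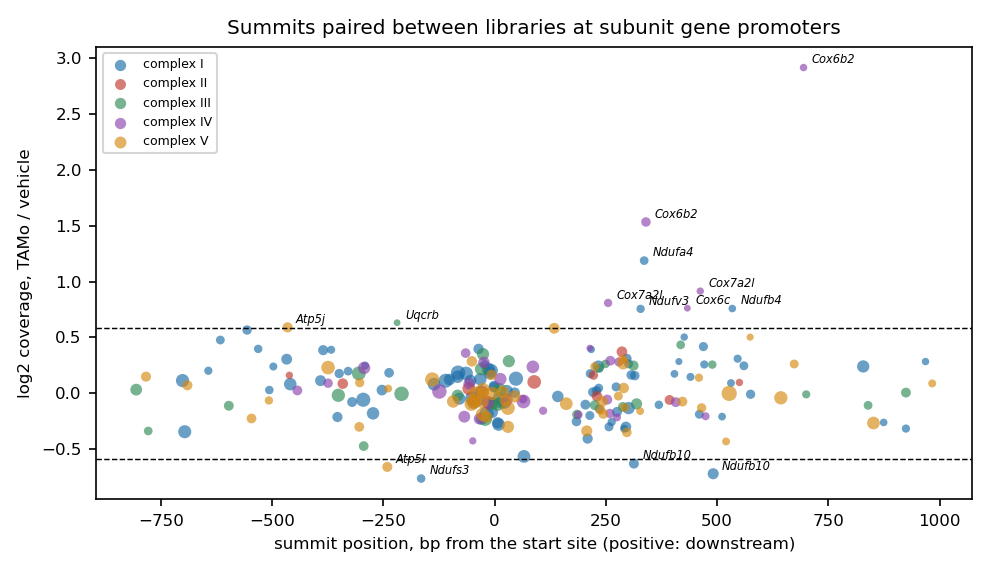
Log2 coverage ratio of the 224 summit pairs at subunit promoters against the distance of the vehicle summit from the start site, coloured by complex, with larger points for more vehicle reads. Pairs within 100 bp of the start site lie between the dashed 1.5-fold lines, and the labelled pairs outside them are led by the 2 intronic sites of Cox6b2 at 1.53 and 2.92.

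Distal intervals, outside 1 kb of any protein-coding start site and nearest to a subunit gene within 100 kb, numbered 238 in the vehicle library and 321 in the TAMo library. They were near 58 and 63 subunit genes, and 17 of the 81 had none. The nearest start site is a label only, and it does not establish which gene an interval acts on. Of the vehicle intervals 33, or 13.9%, overlapped no TAMo interval, beside 13.8% of all distal intervals. Of the TAMo intervals 120, or 37.4%, overlapped no vehicle interval, beside 41.6%. There were 195 shared regions, with a median ratio of 0.25 against 0.37 over all shared distal regions. Of these, 62 were 1.5-fold higher in the TAMo library (31.8%, beside 39.8% of all) and 19 were 1.5-fold lower (9.74%, beside 9.04%). Only 31 of the 195 lay in the body of a subunit gene; 43 lay in the body of another protein-coding gene and 121 between genes.

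By complex, the median ratio of shared distal regions was 0.35 for complex I (69 regions), 0.25 for complex II (10), 0.43 for complex III (24), 0.09 for complex IV (51) and 0.20 for complex V (41). Within 1 to 5 kb of the start site the 29 subunit regions had a median of 0.01, against 0.23 for all regions at that distance, and 5 of them, or 17.2%, were 1.5-fold higher, against 30.3%. From 5 to 20 kb the medians were 0.31 (88 subunit regions) and 0.35, from 20 to 50 kb 0.26 (64 regions) and 0.42, and from 50 to 100 kb 0.67 (14 regions) and 0.45. The subunit regions thus had the lower median at each distance up to 50 kb and the higher one beyond it, where they were fewest.

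**Figure D4:**
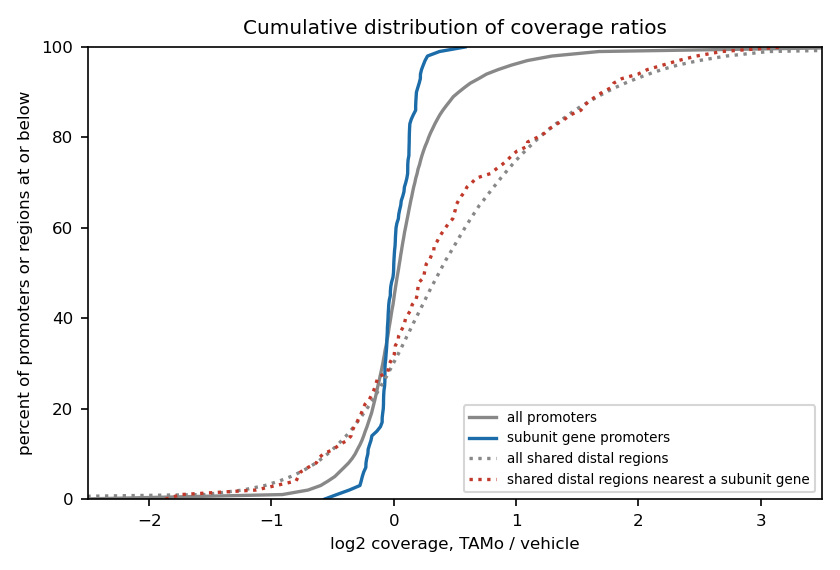
Cumulative share of promoters (solid) and shared distal regions (dotted) at or below each log2 coverage ratio, TAMo over vehicle, for subunit genes in colour and all genes in grey. The curve of the subunit promoters is the steepest, with quartiles of -0.08 and 0.12, and the curve of their distal regions has a median of 0.25 against 0.37 for all distal regions.

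A few subunit genes held much of the distal signal: Uqcrfs1 had 24 vehicle and 31 TAMo intervals, Cox7a2l 23 and 28, and Cox4i2 11 and 16. Around Uqcrfs1, 21 shared regions had a median ratio of 0.27, with 7 higher (beside 39.8% of all shared distal regions) and 3 lower (beside 9.04%). These included the lowest of all 195 regions, 6660 bp upstream of its start (chr13:30551572-30552196), with 305 reads in the vehicle library and 103 in the TAMo library, a ratio of -1.87 (-2.20 to -1.54). The same stretch held a region with 24 and 163 reads, a ratio of 2.46 (1.84 to 3.15), 21711 bp downstream. Sites around this gene thus differed in opposite directions, while the ratio at its promoter was 0.22.

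Ndufb6, an accessory subunit of complex I, had 7 shared regions with a median of 2.21. Of these, 5 were higher (beside 39.8% of all shared distal regions) and none was lower (beside 9.04%). The highest of these, 8257 bp upstream, had 32 and 326 reads, a ratio of 3.05 (2.52 to 3.62), and the next highest, 23498 bp upstream, 51 and 396 reads, a ratio of 2.66 (2.23 to 3.11). The shared region closest to the gene, 6399 bp upstream, had 79 and 122 reads, a ratio of 0.33 (-0.09 to 0.75). At the promoter of the gene itself there were 551 and 718 reads, a ratio of 0.08 (-0.08 to 0.24). The highest distal ratio, 3.18 (2.60 to 3.82), with 26 and 290 reads, was in an intron of Mtss1 and was assigned to Ndufb9 at a distance of 55636 bp. Of Ndufb9 itself, an accessory membrane subunit, the promoter had 509 and 711 reads, a ratio of 0.18 (0.02 to 0.35).

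On the lower side, 6 regions assigned to Cox4i2 lay within Bcl2l1, the gene of the survival protein Bcl-xL. Of these, 3 were called lower (beside 9.04% of all shared distal regions), all 3 in introns. They had 230 and 85 reads (ratio -1.74), 216 and 98 reads (ratio -1.44), and 603 and 366 reads (ratio -1.02). Of the other 3 in Bcl2l1, 1 was called higher, with 130 and 251 reads (ratio 0.65, interval 0.34 to 0.97). The rest had ratios of 0.04 and, in an exon, 0.26. A region in an intron of Braf, assigned to Ndufb2, had 286 and 103 reads, a ratio of -1.77 (-2.11 to -1.44). These 4 lower sites lie inside genes of signalling or survival, 32626 to 36052 bp from the start site of the subunit gene. Other lower sites were closer. Ndufa4l2 had 4 lower (beside 9.04% of all shared distal regions) and 0 higher (beside 39.8%) among 6 shared regions, with a median of -0.65. Its 4 lower regions lay 2824 to 6502 bp upstream, with ratios from -0.95 to -0.64. The lowest, at 6502 bp, was in an exon of Stac3, and the others lay between genes.

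The strongest distal intervals by −log10 q, the authors' own value, were shared by both libraries. One in the Gm20388 locus, 33695 bp from Cox4i1, ranked first in each, with 770 reads in the vehicle library and 926 in the TAMo library, a ratio of -0.03 (-0.17 to 0.11). That near Sdhd, with 461 and 651 reads, had a ratio of 0.20 (0.02 to 0.37). Another, in an intron of Padi2 and nearest to Sdhb, had 700 and 910 reads, a ratio of 0.08 (-0.07 to 0.22), and one near Atp5h, the d subunit of ATP synthase, had 681 and 752 reads, a ratio of -0.16 (-0.31 to -0.01). Among intervals called in 1 library only, the strongest of the TAMo library was in an intron of Ndufa8 (chr2:36039216-36039647), with 241 reads, followed by one in an intron of Ndufa5 (chr6:24525668-24525994), with 324 reads. Their promoters had ratios of 0.06 (-0.15 to 0.27) and 0.15 (-0.02 to 0.32). In the vehicle library the strongest was between genes, 31356 bp upstream of Atp5o, with 226 reads, and the next, near Cox7a2l, had 64 reads.

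Promoters of marker genes of other cell types were open more often in the TAMo library, whose interval list was also longer. All 10 T cell genes checked, Cd3e and Cd8a among them, had a promoter interval in both libraries. Of 13 myeloid genes, 2 had one in the vehicle library and 7 in the TAMo library, and their summed coverage over background was 35.2 and 128. Of 4 B cell genes, 1 and 2 had one, with summed coverage of 5.52 and 16.4, and Ms4a1 had 26 and 65 reads. Over all 20780 genes, 13743 had one in the vehicle library and 14269 in the TAMo library. Cd14 had 141 and 411 reads and Spi1, the gene of the myeloid factor PU.1, had 25 and 57. Itgam (the gene of CD11b, 118 reads), Csf1r (100 reads), Adgre1 (31 reads), Fcgr3 (27 reads) and Cd300c had a promoter interval in the TAMo library only. Lyz2, Ly6c2, Ccr2, Mpeg1, Tyrobp and Fcer1g had no promoter interval in either library. The part of other cells in the sites that were higher in the TAMo library, those of Cox6b2 and Ndufb6 included, was not tested.

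The genes around the respiratory chain were read in the same way. Of 53 assembly factors, which build the complexes without staying in them, 52 were found, all open in both libraries, with a median ratio of 0.00 and none past 1.5-fold. The lowest were Tmem70, an assembly factor of ATP synthase, with 344 and 331 reads (ratio -0.36), and Ndufaf5, of complex I, with 431 and 415 reads (ratio -0.35). Among the highest were Dmac1, with 258 and 446 reads (ratio 0.49), and Sdhaf3, of complex II, with 345 and 571 reads (ratio 0.43). For 14 other carriers, channels and subunits that the symbol rule left out, the median was 0.04 and none was called. They include cytochrome c1 of complex III (Cyc1, ratio 0.12) and Ndufab1 of complex I (ratio 0.01). The 15 genes of the citric acid cycle and pyruvate dehydrogenase with a ratio had a median of -0.09 and none was called, from Sucla2 at -0.35 to Dld at 0.22. Centring on all shared regions, tried here after the data had been seen, put 3 assembly factors (Tmem70, Ndufaf5 and Atpaf1) and Sucla2 past 1.5-fold downwards, beside 10.4% of all promoters.

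The list of transcription and biogenesis factors was the only one of the 4 with genes past 1.5-fold: 2 of 17 were higher in the TAMo library and none was lower. Nrf1, the gene of nuclear respiratory factor NRF1, had 319 reads in the vehicle library and 612 in the TAMo library, a ratio of 0.64 (0.44 to 0.84), which the same centring lowered to 0.36 and below the mark. Ppargc1a, the gene of the coactivator PGC-1alpha, had low coverage of 32 and 74 reads, a ratio of 0.91 (0.29 to 1.56), or 0.63 and still past the mark when so centred. The related coactivator gene Pprc1 had 661 and 1077 reads, a ratio of 0.40 (0.26 to 0.55). Tfam, whose protein packages mitochondrial DNA and acts in its transcription, had 713 and 733 reads, a ratio of -0.26 (-0.41 to -0.11). Yy1 had 842 and 873 reads, a ratio of -0.25 (-0.39 to -0.11). The count of 2 in 17 stands beside the 8.83% of all promoters.

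Promoter sequences were found in RefSeq for 63 of the 81 subunit genes and for 15687 genes in all. The NRF1 motif was in 16 of the 63, or 25.4%, compared with 7.12% of all promoters and 12.9% of those with 300 reads or more in both libraries. The YY1 motif was in 10, or 15.9%, compared with 6.48% and 8.29%, and the ETS motif in 16, or 25.4%, compared with 12.8% and 22.7%. At least one of these 3 was in 36 subunit promoters, or 57.1%, compared with 23.5% of all promoters and 38.3% of the strongly covered ones. The SP motif ran the other way, in 24, or 38.1%, compared with 49.7% of all and 71.1% of the strongly covered promoters. For the next 3 motifs, shares of all and of the strongly covered promoters are given in that order. CCAAT was in 27 (42.9%, against 38.4% and 41.8%), so it was close to the strongly covered ones. The ERR element was in 8 (12.7%, against 3.81% and 2.54%) and CRE in 4 (6.35%, against 2.51% and 3.75%). Of 155 matches, 2 overlapped a match to another motif, and an NRF1 match that is its own reverse complement, as in Atp5k, counts on both strands. Matches to ETS had a median position of -17.0 bp from the start site, and those to YY1 one of 26.5 bp.

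**Figure D5:**
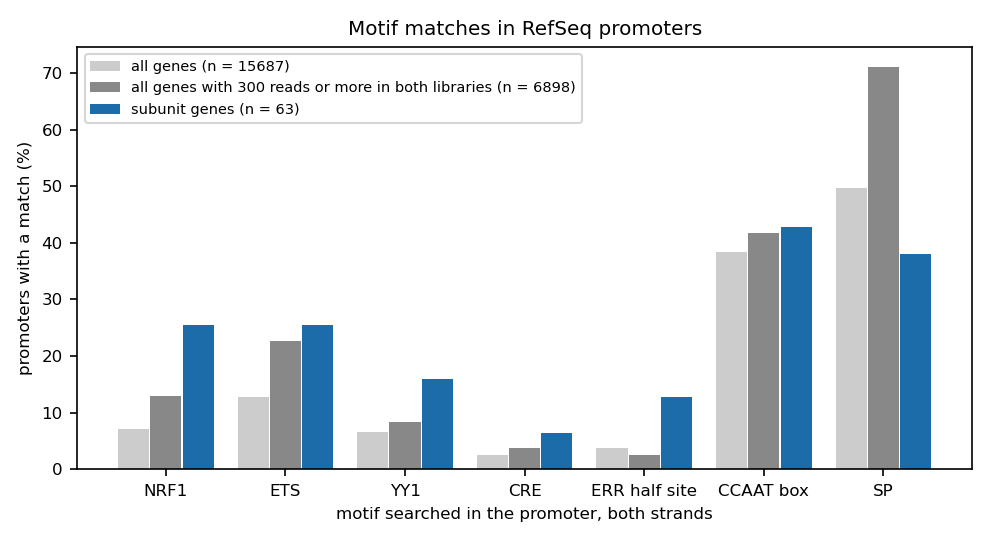
Percentage of RefSeq promoters of 300 bases with a match to each motif, for 63 subunit genes, for all genes and for all genes with 300 reads or more in both libraries. NRF1, YY1, CRE and ERR bars are taller for subunit genes than for both comparison sets, and the SP bar is shorter.

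The ratios of promoters with and without each motif are given as a description. The 16 subunit genes with an NRF1 match had a median of -0.02, and the 41 without had 0.02. For ETS the medians were -0.05 (14 genes) and 0.01 (43 genes), and for YY1 0.01 in both the 10 with and the 47 without. The 4 genes with a CRE match, Ndufa10, Ndufa11, Ndufb2 and Uqcrfs1, had ratios from 0.11 to 0.22 with a median of 0.17, compared with -0.00 for the 53 without and an upper quartile of 0.12 over all subunit promoters. The Ndufa11 value came from a summit at -701 bp from its start site, in an intron of Vmac. At its start site, with 457 and 501 reads, the ratio was -0.17 (-0.35 to 0.02), so not all 4 genes were higher there. The ratios of the 53 ran from -0.56 to 0.26, and 4 genes allow no more than this description. A match describes the letters of the window, and no binding was measured.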

How the data were processed

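Per the labels' protocols, libraries came from a Vazyme TruePrep kit, and a HiSeq X instrument read 150 bp from both ends. Trimmomatic 0.36, Bowtie2, MACS2 and mm10 are named in the submitters' processing notes. Not given in the sources used here were read shifting, duplicate removal and calling options. The deposited lists, called per library on chromosomes 1 to 19, hold 163215 summits in 127423 intervals (vehicle) and 225656 in 179414 (TAMo), with a score, a fold (a ratio over local background), a −log10 p and a −log10 q for each summit. The median summit had 81 reads in vehicle and 93 in TAMo. Library read totals are not used here.

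Coverage was solved from the deposited fold, (coverage + 1)/(background + 1), and the Poisson −log10 p. Whole reads, within 1% of a step, resulted for all but 30 vehicle and 48 TAMo summits. The method was tested on simulated data. Start sites came from GENCODE vM21 basic transcripts; Atp5o has 2 gene models, joined here (82 models in all). Intervals overlapping by 1 bp were shared. A call means 1.5-fold. Python 3.11.15, pandas 2.3.3 and scipy 1.17.1 were used.

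The members, gene lists and motifs were chosen with earlier results of these data known. Named genes were those past 1.5-fold, the 2 highest and 2 lowest ratios of each complex, genes lacking a promoter interval, core subunits, complex IV isoforms, genes nearest the strongest and most different distal intervals, and the 3 highest and lowest ratios of related lists; genes named for summit pairs, shared start sites, the position of their interval or motif matches were chosen after their values were seen. Alternatives covered windows, scaling, thresholds, overlap and list length.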

Additional observations from a re-analysis of the deposited data

How the results depend on the processing

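Centring on all shared regions moved the median promoter ratio to -0.28 for all subunit genes and to -0.26, -0.29, -0.28, -0.30 and -0.32 for complexes I to V, with 2 genes lower. Centring on all promoters left 1 gene lower, and a window of 2.5 kb gave 1 gene higher of 74. By 95% intervals 9 genes were higher and 9 lower; by summit pairs, an alternative chosen after seeing the data, 10 pairs were higher and 4 lower. Vehicle distal intervals without a TAMo overlap numbered 61 when the overlap had to cover 50% of both intervals and 60 when the TAMo list was reduced by −log10 q to as many intervals as vehicle has, which left 52 TAMo intervals without a vehicle overlap. Centring on all shared distal regions gave 42 lower regions. Of 216 alternative values for named genes, 179 moved by less than their counting interval, 36 moved only through centring on all shared regions, and Cox7a2l gave -0.08 with a window of 250 bp. The median counting interval reached 0.17 to either side for promoters and 0.43 for distal regions, which limits what smaller differences show. No paired analysis was possible because there was 1 library per group, and no replicate could be left out.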
